A study of Mus musculus with 8 samples.

Results

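Healthy tibialis anterior, a fast muscle of the shin, was compared between Balb/c and CD2F1 mice, the background strains of a pair of cancer cachexia models. The deposited data are 2 tables of gene levels, each from a separate Cuffdiff run of tumour-bearing against healthy muscle of 1 strain. The genes compared were those found in both tables by gene identifier with a level of 1 FPKM or more in at least 1 healthy group, where FPKM is fragments per kilobase of transcript, scaled to library size. This gave 2932 genes, of 6028 in either table and 3138 in both. Another 206 shared genes lay under 1 FPKM in both healthy groups. Next to that floor, Ttc30a1 (0.991 FPKM in Balb/c and 1.001 in CD2F1) was kept, and Eda (0.999 and 0.805 FPKM) was left out.

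The healthy Balb/c group and the healthy CD2F1 group each had 2 libraries, from mice aged 12 to 14 weeks with no tumour. The tumour-bearing groups, also of 2 libraries each, were Balb/c mice given the 4T1 mammary cancer line and CD2F1 mice given the C26m2 colon cancer line. Both lines carried luciferase, a light-giving label; tumours were removed 2 to 3 weeks after injection, and muscle was taken at 5 weeks from mice with metastases and signs of cachexia, the muscle wasting of cancer. All libraries were made from poly-A RNA with a TruSeq kit. The labels record neither sex nor any sham operation for healthy mice, and they do not tie libraries to animals.

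Balb/c is an inbred strain. CD2F1 mice are the first-generation offspring of a BALB/c and a DBA/2 parent, so on the autosomes they carry a BALB/c copy of each gene beside a DBA/2 copy. The tibialis anterior is built mostly of fast glycolytic fibres, which are held in a collagen-rich matrix, fed by capillaries and adjusted in size and composition by load, nerve activity, hormones and the daily clock.

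Each strain had 1 deposited level per gene, with no replicate values, so no SD and no test between strains could be had, and sequencing depth is unknown. All levels below are the authors' FPKM, and those of Balb/c and CD2F1 were normalized in separate runs. The log2 ratio of healthy Balb/c over healthy CD2F1 was therefore centred by subtracting its median over the 2932 genes, 0.09 or 1.065-fold. Folds between strains are on that centred scale, and strain and Cuffdiff run cannot be told apart. A table lists a gene when tumour-bearing muscle differed from healthy muscle at an authors' q of 0.05 or less, which held for about 32.8% of genes tested in the 4T1 run and 36.8% in the C26m2 run. The genes compared are thus tumour-responsive genes of both models, and a gene's listing depended on its healthy level.

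The healthy muscles of the strains were alike for most of these genes. Across genes, which are not independent replicates, log2 FPKM in Balb/c and in CD2F1 had a Pearson correlation of 0.969. The median distance between strains was 1.138-fold in either direction, and 2796 genes (95.4%) lay within 2-fold. A level 2-fold or more higher in Balb/c was found for 65 genes (2.22%), and 71 genes (2.42%) were 2-fold or more higher in CD2F1, so that 136 (4.64%) passed 2-fold either way. At 4-fold, 11 genes (0.375%) were higher in Balb/c and 16 (0.546%) in CD2F1, or 0.921% in all. These counts depend on low levels: with 1 FPKM added to each level, 41 and 38 genes passed 2-fold. Past 4-fold in Balb/c, the count was 17 with no floor and 7 with 1 FPKM added or at a q of 0.01 or less. Past 4-fold in CD2F1, it was 10 with 1 FPKM or more required in both healthy groups. Nearest the 2-fold line, Sctr (1.998-fold) fell short of it and Ddit4l (2.004-fold) passed it.

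The spread was wider among weakly expressed genes. Of the 294 genes with the lowest mean healthy level, up to 1.89 FPKM, 11.6% passed 2-fold, against 2.38% of the 294 with the highest. Part of the 11.6% is fixed by the floor. A gene with a mean well under 1 FPKM was kept only where its healthy levels lay far apart. Of the 136 genes past 2-fold, 43 were under 5 FPKM in both healthy groups.

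**Figure D1:**
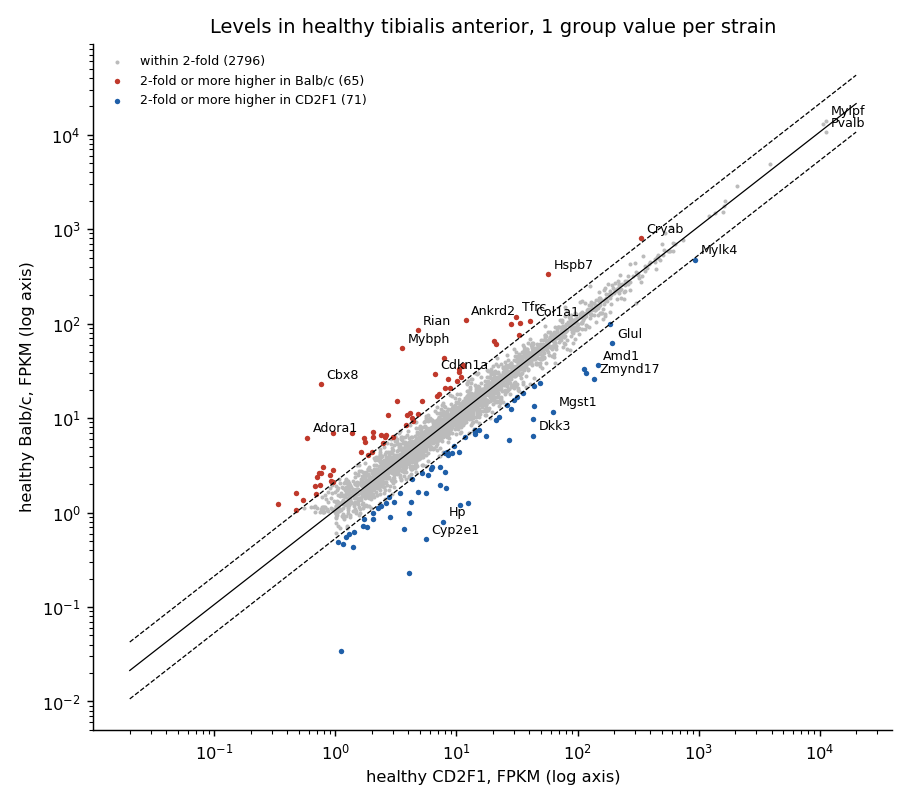
Level of each gene in healthy CD2F1 (horizontal axis) and healthy Balb/c (vertical axis) tibialis anterior, both in FPKM on log axes, 1 point per gene and 2932 in all; dashed lines mark 2-fold. Most points lie close to the solid line of equal level after centring, with 65 genes 2-fold or more above it and 71 as far below.

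Of the genes that define this muscle, 3 could be compared, and none was 2-fold apart. Mylpf, a fast myosin light chain, was at 13985 FPKM in Balb/c and 11181 in CD2F1. Pvalb, the calcium buffer parvalbumin of fast fibres, was at 10602 and 11238 FPKM. Casq1, the calcium store protein of the fast sarcoplasmic reticulum, was at 1491 and 1355 FPKM. Their folds after centring were 1.175, 1.129 and 1.034. Other defining genes of fast muscle, such as Acta1, Ckm and Myh4, were not listed in both tables and are not compared here.

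The 11 fast-fibre genes compared had a median of 0.05 on the log2 scale, and 10 of them lay within 2-fold, as did 95.4% of all genes compared. The exception was Mylk4, a myosin light chain kinase family member, at 476 FPKM in Balb/c and 932 in CD2F1, 2.086-fold higher in CD2F1. All 17 genes of glycolysis and glycogen use lay within 2-fold (median 0.02), as did all 23 proteasome subunits (0.07), all 40 cytosolic ribosomal proteins (0.04), all 18 genes of autophagy and lysosomes (-0.08) and all 16 muscle ion channel and calcium genes (0.05). With 95.4% of all genes within 2-fold, these counts are near that share, and the medians are near 0, the median of all 2932 genes after centring.

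The main atrophy genes also started from near the same level. Trim63, the ubiquitin ligase MuRF1, was at 91.6 FPKM in healthy Balb/c and 77.4 in healthy CD2F1, and at 2179.6 and 2054 FPKM in the tumour-bearing groups. Fbxo32, the ligase atrogin-1, was at 47.8 and 64.0 FPKM in the healthy groups. The zinc importer gene Slc39a14 was at 4.61 and 5.17 FPKM, and the metallothionein gene Mt1, whose product binds zinc, at 28.0 and 26.6 FPKM. None of these 4 genes differed by more than 1.425-fold between healthy strains. The list of atrophy ubiquitin ligases, of which 10 genes were compared, had a median of 0.02.

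The largest group difference in favour of Balb/c among gene lists with 10 or more members was in the extracellular matrix. Of 30 matrix genes, 25 were higher in Balb/c, where 50.0% of all genes compared were. The median was 0.83 on the log2 scale (1.774-fold), and 7 of the 30 passed 2-fold in Balb/c and 0 in CD2F1. Summed over the 30 genes, the level was 1214 FPKM in Balb/c and 799 in CD2F1.

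The 5 fibrillar collagen chains on the matrix list were higher in Balb/c, to differing degrees. Col1a1, a chain of collagen I, was at 105 FPKM in Balb/c and 40.1 in CD2F1. Col3a1, the chain of collagen III, was at 65.8 and 20.4 FPKM, and Col5a2, a chain of collagen V, at 11.4 and 4.17 FPKM. Col3a1 and Col5a2 are adjacent on chromosome 1. These 3 were between 2.467-fold and 3.027-fold higher in Balb/c, whereas Col1a2, the other chain of collagen I, at 149.6 and 78.9 FPKM (1.781-fold), and Col5a1, at 7.11 and 4.68 FPKM (1.428-fold), were under 2-fold.

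Chains of collagen VI and collagen XV went the same way. Col6a3, a chain of the microfibril-forming collagen VI, was at 33.2 FPKM in Balb/c and 10.5 in CD2F1, and its partner chain Col6a2 at 20.6 and 7.99 FPKM. Col15a1, a basement membrane collagen, was at 25.9 and 8.44 FPKM. Postn, the matricellular protein periostin, had the widest fold of the list, 3.355, at 6.13 and 1.72 FPKM.

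The rest of the list moved less. Sparc, a collagen-binding protein, was at 251 FPKM in Balb/c and 128 in CD2F1, and Serpinh1, the collagen chaperone HSP47, at 26.2 and 13.1 FPKM. Of the 5 matrix genes higher in CD2F1, Dcn, the small proteoglycan decorin, was the furthest off, at 181 FPKM in Balb/c and 243 in CD2F1. Fibroblast markers did not go with the collagens: 6 of 10 were higher in CD2F1, the median was -0.22, and their summed level was 344.8 FPKM in Balb/c and 368 in CD2F1. Tendon markers split as well, with 3 of 7 higher in Balb/c and sums of 132 and 144 FPKM; Cilp was 3.682-fold higher in Balb/c and Comp 2.019-fold higher in CD2F1. In bulk muscle, fewer cells of a type and less RNA per cell cannot be told apart.

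In tumour-bearing muscle the collagen levels were low in both strains. Col1a1 was at 1.01 FPKM in 4T1-bearing Balb/c and 1.28 in C26m2-bearing CD2F1, and Col3a1 at 1.86 and 2.38 FPKM. The matrix list's median ratio between the tumour-bearing groups was -0.17, with 0 genes past 2-fold in Balb/c and 2 in CD2F1.

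**Figure D2:**
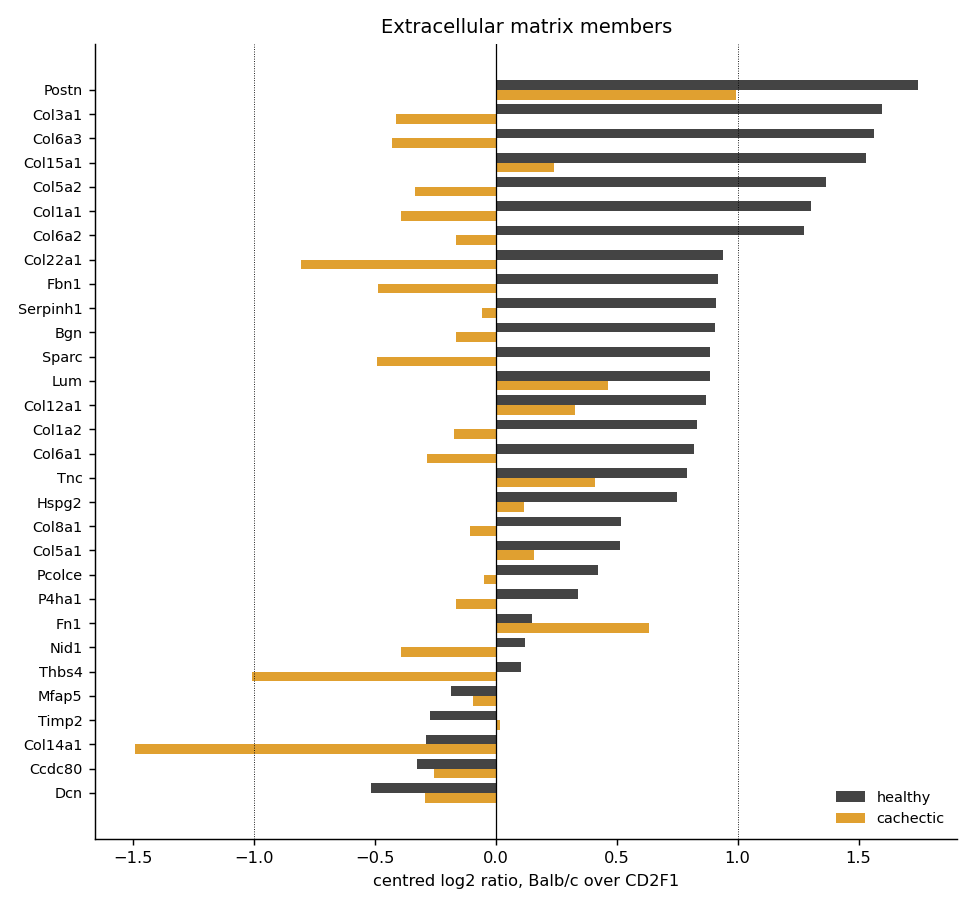
Centred log2 ratio of Balb/c over CD2F1 for the 30 extracellular matrix genes, with a dark bar for healthy muscle and an orange bar for tumour-bearing (cachectic) muscle, each from the authors' 2 group values and so without error bars; dotted lines mark 2-fold. The dark bars point to Balb/c for 25 genes and reach 1.75 for Postn, while the orange bars have a median of -0.17.

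The sarcomere and Z-disc list, which holds thin-filament, Z-disc and myosin-binding genes, was also higher in Balb/c for 11 of 13 genes, with a median of 0.42 and 3 genes past 2-fold, all in Balb/c. Mybph, which encodes myosin-binding protein H, was at 54.9 FPKM in Balb/c and 3.55 in CD2F1, 14.52-fold apart. Xirp1, an actin-binding Xin-repeat protein, was at 30.6 and 10.4 FPKM. Cryab, the small heat shock protein alpha-B-crystallin, was at 801 and 335 FPKM. Ldb3, a PDZ and LIM protein of the Z-disc, was at 905 and 524 FPKM, under 2-fold.

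Other single genes with a higher level in Balb/c are given here by their known roles, not as a tested group. Ankrd2, an ankyrin-repeat protein of the sarcomere that is rich in slow fibres and rises with stretch, was at 109 FPKM in Balb/c and 12.0 in CD2F1 (8.576-fold). Hspb7, a small heat shock protein of heart and muscle, was at 332 and 57.1 FPKM (5.451-fold). Mustn1, a small nuclear protein of muscle and bone, was at 98.0 and 28.0 FPKM (3.289-fold). Cdkn1a, the cell cycle inhibitor p21, was at 29.2 and 6.60 FPKM (4.156-fold). The related small heat shock gene Hspb1 was at 81.1 and 64.1 FPKM, 1.188-fold apart.

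Ankrd2 is also on the slow-fibre list, of which 3 of 4 genes were higher in Balb/c. Myl2, the slow regulatory light chain, was at 13.3 FPKM in Balb/c and 22.4 in CD2F1, and Myl3, the slow essential light chain, at 12.5 and 9.43 FPKM. Among immediate early genes, which respond fast to stimulation or handling, 8 of 12 were higher in Balb/c (median 0.26). Atf3 was the single one past 2-fold, at 2.52 and 0.907 FPKM, and passed the floor of 1 FPKM only through Balb/c.

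Promoter sequence is shown for Ankrd2 and Mybph because they were among the widest Balb/c-high genes of the contractile apparatus. The sequences are RefSeq's for GRCm38.p6, a C57BL/6J reference and not the sequence of either strain, and run over the 250 bases before each gene's start. Ankrd2 is at chr19:42035777-42036026 and Mybph at chr1:134193198-134193447, both on the plus strand. Capitals mark the E-box CANNTG, a motif bound by the MyoD family, the M-CAT motif CATTCC, bound by TEAD factors in muscle, and the TATA box TATAAA, each searched on both strands (reverse complements GGAATG and TTTATA).
Ankrd2: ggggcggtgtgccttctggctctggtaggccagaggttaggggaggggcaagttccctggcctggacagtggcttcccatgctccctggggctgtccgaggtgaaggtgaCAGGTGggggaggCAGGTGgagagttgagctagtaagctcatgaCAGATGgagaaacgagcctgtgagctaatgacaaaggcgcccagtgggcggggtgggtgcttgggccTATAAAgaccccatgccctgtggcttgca
Mybph: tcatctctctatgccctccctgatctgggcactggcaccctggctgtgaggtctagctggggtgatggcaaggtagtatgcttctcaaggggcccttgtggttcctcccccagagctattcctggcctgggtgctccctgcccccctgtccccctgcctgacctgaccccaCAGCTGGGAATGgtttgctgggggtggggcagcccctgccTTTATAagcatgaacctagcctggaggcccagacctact

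The Ankrd2 window held 3 E-boxes, 0 M-CAT motifs and a TATA box, and the Mybph window held 1 of each, with the E-box and the M-CAT motif side by side. E-boxes are common: 66.0% of the 27025 promoters in the table held at least 1, as did 55.4% of the 2265 compared genes that matched it. Of the 65 genes 2-fold or more higher in Balb/c, 40 matched, and 65.0% of these held an E-box, 20.0% an M-CAT motif and 12.5% a TATA box. For the last 2 motifs the shares were 12.6% and 13% over all promoters, and 10.4% and 7.06% over the compared genes that matched. A match is a run of letters and not a shown binding site, and these genes and motifs were chosen after the levels were seen.

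The widest gaps of all in favour of Balb/c were in genes of several roles. Cbx8, a chromobox protein of the Polycomb repressive complex, was at 22.9 FPKM in Balb/c and 0.760 in CD2F1 (28.32-fold). Rian, an imprinted long noncoding RNA expressed from the maternal chromosome, was at 85.5 and 4.78 FPKM (16.81-fold). The identifier of this Rian entry matched no gene in GENCODE M21, so its label could not be checked. Adora1, the adenosine A1 receptor, was at 6.18 and 0.586 FPKM (9.896-fold), and is the next compared gene to Mybph on chromosome 1, within 1 Mb. Cbx8 and Adora1 passed the floor of 1 FPKM only through Balb/c, so the direction of their gaps is not separate from that floor.

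Rian's neighbours at its imprinted locus could not be set between strains. Meg3 and Mirg, noncoding RNAs of the same locus, were listed in the 4T1 table alone, with healthy Balb/c levels of 188 and 6.81 FPKM. H19, another imprinted maternally expressed RNA, was listed in the same table alone, at 456 FPKM. These 3 genes were picked after their values were seen.

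Further Balb/c-high genes had unrelated roles. Tfrc, the transferrin receptor for iron uptake, was at 119 FPKM in Balb/c and 31.1 in CD2F1 (3.579-fold), and in tumour-bearing muscle at 2.54 and 2.17 FPKM. Of the 9 genes for zinc, iron and other metals, it was the single one past 2-fold in Balb/c, and 7 of the 9 were higher in CD2F1. Tceal7, of the elongation factor A-like family, was at 43.5 and 7.95 FPKM. Ighm, the constant region of immunoglobulin M and the single lymphocyte marker compared, was at 102 and 33.7 FPKM.

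Endothelial markers were higher in Balb/c for 11 of 11 genes, with a median of 0.39 and sums of 130 and 93.1 FPKM. Pecam1, the adhesion molecule CD31, was at 27.2 FPKM in Balb/c and 19.03 in CD2F1, and Cldn5, the tight junction protein claudin-5, at 10.4 and 5.63 FPKM. Apold1, an endothelial early response gene, was the single one past 2-fold, at 1.23 and 0.337 FPKM. It passed the floor of 1 FPKM only through Balb/c. Gpihbp1, which holds lipoprotein lipase on capillaries, was at 35.0 and 24.7 FPKM. The share of endothelial cells was not measured, and its part in other Balb/c-high genes was not tested.

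**Figure D3:**
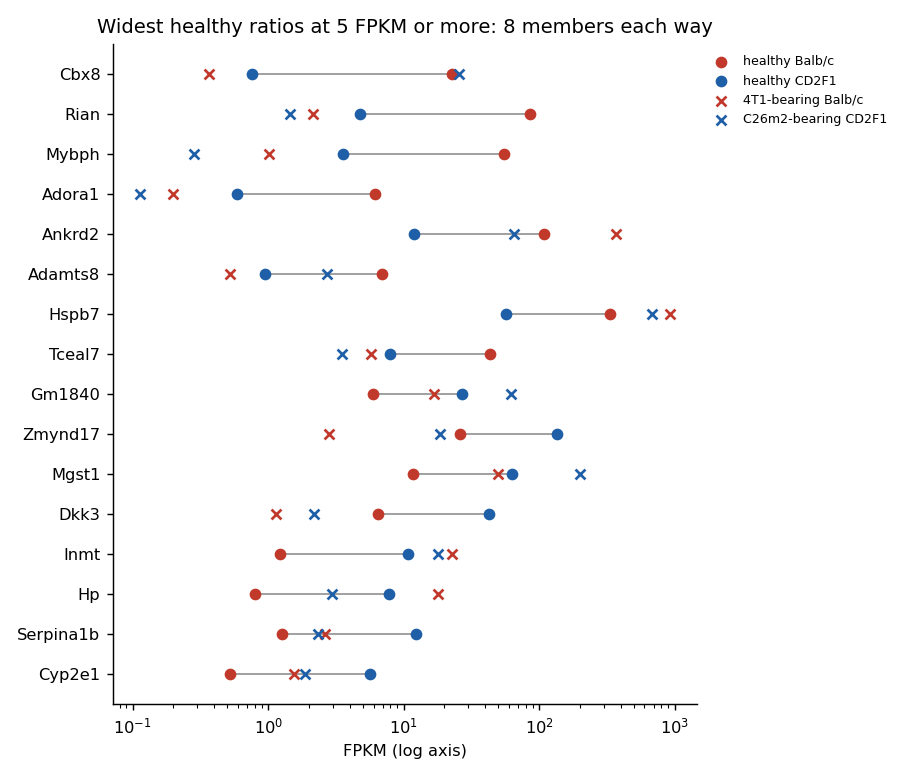
FPKM on a log axis, in the 4 groups, of the 8 genes furthest apart each way between healthy strains among those with 5 FPKM or more in at least 1 healthy group; dots are healthy and crosses tumour-bearing groups, red for Balb/c and blue for CD2F1, each the authors' value for 2 libraries, and a line joins the healthy pair. The line is longest for Cbx8, from 0.760 to 22.9 FPKM, and its crosses lie in the opposite order to its dots. Cbx8, Adora1 and Adamts8 were at 1 FPKM or more in healthy Balb/c only, and Cyp2e1 and Hp in healthy CD2F1 only.

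On the CD2F1 side, Amd1, Amd2 and Smox, which act in polyamine metabolism, were among the 15 widest genes at 5 FPKM or more. They were picked after their levels were seen and are no tested group. Polyamines are small charged molecules tied to cell growth, made with decarboxylated S-adenosylmethionine and broken down by oxidases. Amd1, which encodes S-adenosylmethionine decarboxylase, was at 36.5 FPKM in Balb/c and 147 in CD2F1 (4.295-fold). Its near copy Amd2 was at 1.81 and 8.15 FPKM (4.793-fold). Smox, the spermine oxidase, was at 32.7 and 113 FPKM (3.679-fold).

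The levels of Amd1 and Amd2 are not separate measurements. Their transcripts are 99.6% identical over 3202 aligned bases, so reads could be shared between them. All 3 genes were lower with tumours: Amd1 was at 4.62 FPKM in 4T1-bearing Balb/c and 11.2 in C26m2-bearing CD2F1, and Smox at 10.3 and 11.4 FPKM. Amd1 was thus still 2.51-fold higher in CD2F1, whereas Smox was within 1.148-fold. Sms, the spermine synthase, was listed in the 4T1 table alone, at 49.9 FPKM in healthy Balb/c. Srm, the spermidine synthase, was listed in the C26m2 table alone, at 4.37 FPKM in healthy CD2F1.

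Promoter windows of these genes are shown because they were higher in healthy CD2F1, in the same form as above. Amd1 and Amd2 do not count as separate cases, since their reads could be shared. Amd1 is at chr10:40302189-40302438 and Amd2 at chr10:35711892-35712141, both on the minus strand, and Smox at chr2:131491612-131491861 on the plus strand.
Amd1: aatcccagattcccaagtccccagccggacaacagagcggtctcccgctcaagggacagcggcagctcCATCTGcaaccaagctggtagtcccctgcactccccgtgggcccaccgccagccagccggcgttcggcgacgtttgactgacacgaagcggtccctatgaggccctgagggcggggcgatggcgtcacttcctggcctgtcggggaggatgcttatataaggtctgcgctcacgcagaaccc
Amd2: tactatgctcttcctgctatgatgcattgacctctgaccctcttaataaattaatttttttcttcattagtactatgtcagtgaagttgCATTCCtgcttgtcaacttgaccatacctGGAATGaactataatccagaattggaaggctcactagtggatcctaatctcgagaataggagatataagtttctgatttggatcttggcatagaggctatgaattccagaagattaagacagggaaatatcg
Smox: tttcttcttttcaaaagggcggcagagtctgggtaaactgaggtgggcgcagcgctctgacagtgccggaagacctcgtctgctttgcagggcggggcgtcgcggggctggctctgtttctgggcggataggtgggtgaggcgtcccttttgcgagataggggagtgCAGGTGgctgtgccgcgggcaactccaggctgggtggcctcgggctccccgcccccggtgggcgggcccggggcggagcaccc

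Amd1 and Smox held 1 E-box each, and the Amd2 window held 2 M-CAT motifs and no E-box, so none of the 3 motifs was shared by all 3 windows. Of the 71 genes 2-fold or more higher in CD2F1, 52 matched the promoter table, and 76.9% of these held an E-box, 9.62% an M-CAT motif and 13.5% a TATA box. Over the compared genes that matched, the shares were 55.4%, 10.4% and 7.06%, and over all promoters 66.0%, 12.6% and 13%. The genes higher in Balb/c had 65.0%, 20.0% and 12.5%, and no difference between these sets was tested.

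Other CD2F1-high genes had varied roles. Dkk3, of the Dickkopf family of secreted proteins, was at 6.50 FPKM in Balb/c and 43.0 in CD2F1 (7.052-fold). Mgst1, the membrane-bound glutathione S-transferase, was at 11.7 and 62.7 FPKM (5.715-fold). Zmynd17, now named Mss51 and known in muscle for its link to mitochondrial metabolism, was at 26.2 and 136 FPKM (5.519-fold). Glul, glutamine synthetase, was at 62.0 and 192 FPKM (3.301-fold). Cyp26b1, which breaks down retinoic acid, was at 1.60 and 5.65 FPKM.

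Smaller gaps on this side included Cntfr, the receptor subunit for ciliary neurotrophic factor, at 6.46 FPKM in Balb/c and 17.7 in CD2F1. Npc1, which moves cholesterol out of lysosomes, was at 4.38 and 10.5 FPKM, and Dgat2, which makes triglyceride, at 7.41 and 15.3 FPKM. Gdap1, a protein of the outer mitochondrial membrane, was at 2.66 and 8.09 FPKM. Musk, the muscle-specific kinase of the neuromuscular junction, was at 0.467 and 1.16 FPKM, and passed the floor of 1 FPKM only through CD2F1.

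Gm1840 was at 5.92 FPKM in Balb/c and 27.0 in CD2F1 (4.845-fold), but its transcript is 98.7% identical to that of the glycolytic gene Gpi1 over 1046 bases. Gpi1 was at 495 and 460 FPKM. Copies of this kind make the level of Gm1840 uncertain.

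Several CD2F1-high genes are markers of other cell types or organs. Cyp2e1, a liver cytochrome P450, was at 0.520 FPKM in Balb/c and 5.60 in CD2F1 (11.48-fold). Serpina1b, an alpha-1-antitrypsin gene with near copies in the mouse, was at 1.27 and 12.4 FPKM (10.39-fold). Hp, the plasma protein haptoglobin, was at 0.801 and 7.79 FPKM (10.35-fold). Inmt, an N-methyltransferase on none of the marker lists, was at 1.21 and 10.8 FPKM (9.435-fold).

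Of 72 liver and plasma protein markers, 4 were compared, and Vtn, at 18.0 and 13.5 FPKM, was the one higher in Balb/c. Their summed level was 20.6 FPKM in Balb/c and 39.3 in CD2F1. Of these 4, Cyp2e1 and Hp passed the floor of 1 FPKM only through CD2F1. Of the same 72 markers the 4T1 table listed 6, with a median healthy level of 1.153 FPKM, and the C26m2 table listed 39, with a median healthy level of 4.144 FPKM. These medians are over different genes. All 39 were lower in the C26m2-bearing group, while in the 4T1-bearing group 5 of the 6 were higher and 1 lower. The most abundant, Alb, the serum albumin gene, was at 79.5 FPKM in healthy CD2F1, and the 4T1 table did not list it. Whether liver transcripts take part in other CD2F1-high genes was not tested.

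Neutrophil and macrophage markers leaned the same way, the neutrophil markers at low levels. S100a8, a calcium-binding protein of neutrophils, was at 0.666 FPKM in Balb/c and 3.71 in CD2F1, and its partner S100a9, which is adjacent on chromosome 3, at 0.860 and 2.06 FPKM. Lcn2, the iron-siderophore binder lipocalin-2, was at 1.17 and 2.39 FPKM. These 3 were the neutrophil markers compared, of 30 on the list and 6 in both tables, with sums of 2.70 and 8.16 FPKM. S100a8 and S100a9 passed the floor of 1 FPKM only through CD2F1, so their lean is not separate from that floor. Of 9 macrophage markers, 7 were higher in CD2F1, with a median of -0.71 and sums of 46.0 and 78.4 FPKM. Cbr2, a carbonyl reductase, was at 9.78 and 43.0 FPKM and alone differed by more than these sums did, whereas Cd68 was at 2.64 and 3.24 FPKM and Mrc1, the mannose receptor, at 2.35 and 2.04 FPKM.

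Of 10 clock genes, 9 were higher in CD2F1, with a median of -0.42. Gm129, now named Ciart, a repressor of the clock's activators, was at 2.92 FPKM in Balb/c and 6.19 in CD2F1, and the cryptochrome gene Cry2 at 7.62 and 14.0 FPKM. The exception was Arntl, which encodes the activator BMAL1, at 5.55 and 1.76 FPKM (2.966-fold higher in Balb/c). The period gene Per1 was at 13.05 and 16.4 FPKM, 1.336-fold higher in CD2F1. Time of day at collection is not given in the labels and cannot be told apart from strain.

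The list of FoxO and glucocorticoid targets, genes switched on in fasting and stress, was split, with 13 of 30 genes higher in Balb/c and a median of -0.04. It held 2 genes past 2-fold in Balb/c, Cdkn1a and Klf2, and 3 in CD2F1, Glul, Bcl6 and Arrdc3. Fkbp5, a glucocorticoid-induced co-chaperone, was at 14.5 FPKM in Balb/c and 7.73 in CD2F1, and Foxo1 itself at 5.72 and 4.81 FPKM. Genes of oxidative and heat stress were higher in CD2F1 for 10 of 13 (median -0.28), among them Hmox1, haem oxygenase, at 2.24 and 4.29 FPKM, while the 3 higher in Balb/c were the small heat shock genes Hspb7, Cryab and Hspb1.

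Interferon and antigen presentation genes had a median of 0.23, with 10 of 14 higher in Balb/c. Cd74, the invariant chain of MHC class II, was at 19.6 FPKM in Balb/c and 12.5 in CD2F1. In the Schwann cell list, Pmp22, a myelin protein of peripheral nerve, was at 20.7 and 31.9 FPKM.

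**Figure D4:**
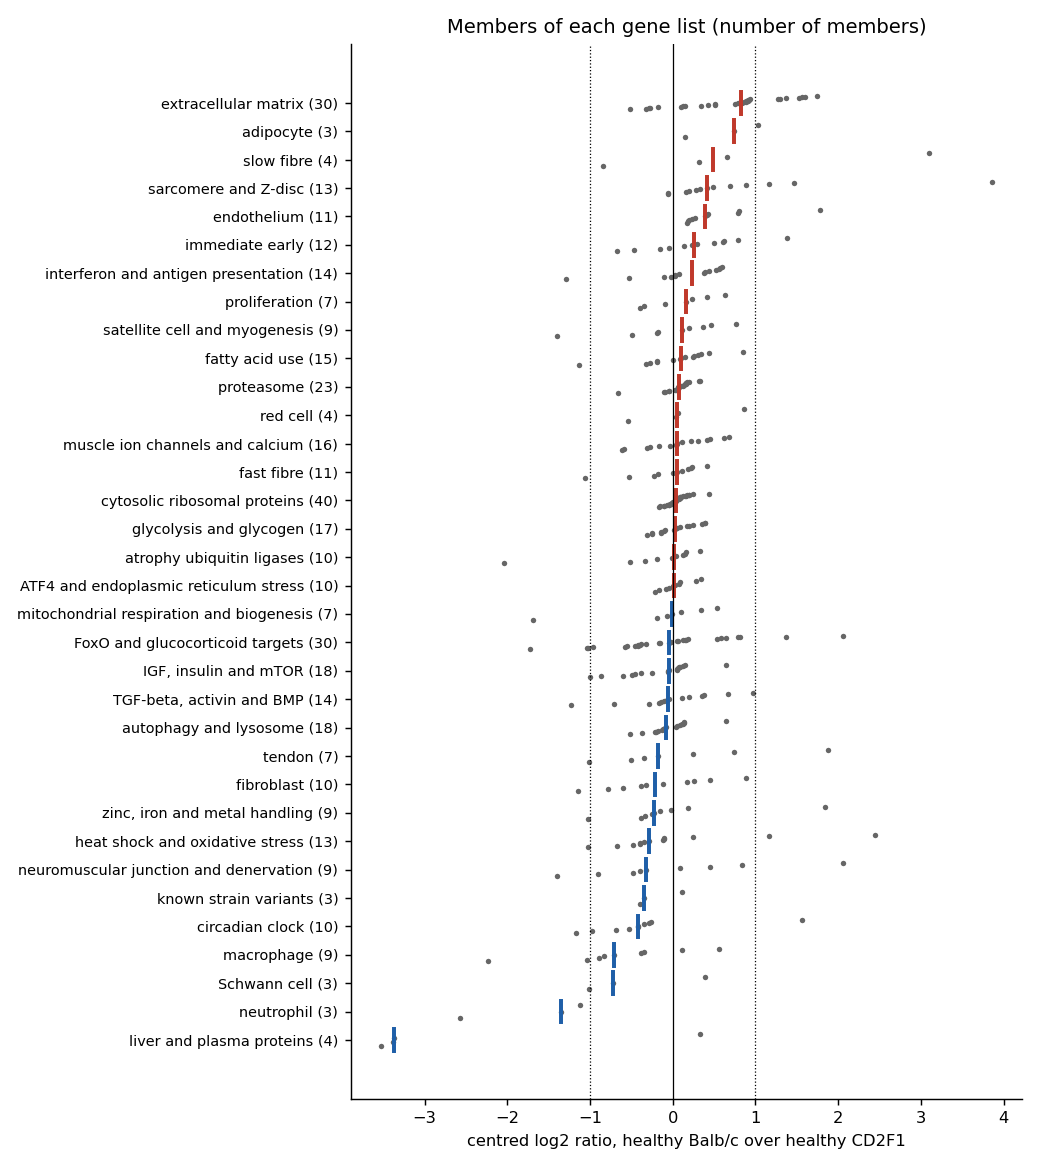
Centred log2 ratio of healthy Balb/c over healthy CD2F1 for each compared gene of each gene list with 3 or more members, 1 point per gene, with the list's median as a coloured upright mark and the number of genes in brackets. The matrix list sits to the right (median 0.83) and the neutrophil and liver lists to the left (medians -1.35 and -3.37), while the proteasome and ribosomal protein lists sit near 0. The neutrophil and liver medians are over 3 and 4 genes. Of these, S100a8, S100a9, Cyp2e1 and Hp passed the floor of 1 FPKM only through CD2F1.

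The sex of the mice could be checked in 1 strain at most. The Y-linked genes Eif2s3y and Ddx3y were listed in the C26m2 table, at 44.7 and 20.8 FPKM in healthy CD2F1. RNA of male mice was thus present in that group, whose libraries have no separate values. The 4T1 table did not list these Y-linked genes. Xist, the marker RNA of the inactive X chromosome, was in neither table. The sex of the Balb/c mice is therefore not known here, and sex and strain cannot be told apart. Of 99 X-linked genes compared, 4 (4.04%) passed 2-fold, near the 4.64% of all genes, and these, Tceal5, Tceal7, Atp1b4 and Igsf1, were higher in Balb/c. By autosome, the share of compared genes past 2-fold either way ran from 2.17% on chromosome 17 to 12.7% on chromosome 16, where 3 were higher in Balb/c and 7 in CD2F1.

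The same ratio was then taken between the tumour-bearing groups, 4T1-bearing Balb/c over C26m2-bearing CD2F1, which share no library with the healthy groups but differ in tumour as well as in strain. This ratio was centred on its own median, 0.05. The strains lay further apart there: the median distance was 1.272-fold, and 324 genes (11.1%) passed 2-fold, 127 (4.33%) higher in Balb/c and 197 (6.72%) in CD2F1. Across the 2932 genes, the Pearson correlation of the healthy and the tumour-bearing ratio was 0.12 and Spearman's 0.16, as a description, since each strain's groups shared a Cuffdiff run.

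Healthy gaps were kept in part. Of the 65 genes 2-fold or more higher in healthy Balb/c, 16 (24.6%) were so in the tumour-bearing pair too, and 4 (6.15%) were past 2-fold the opposite way. Of the 71 higher in healthy CD2F1, 19 (26.8%) were so again, and 9 (12.7%) were past 2-fold the opposite way. Together that is 35 of 136 (25.7%) in the same direction and 13 (9.56%) in the opposite one. Over all 2932 genes, 4.33% were past 2-fold in Balb/c and 6.72% in CD2F1 in the tumour-bearing pair. The 6.15% of Balb/c-high genes that went the opposite way is near that 6.72%. With 1 FPKM added to each level the count in the same direction was 15. By sign alone, 66.9% of the 136 had the same direction in both pairs, against 55.2% of all 2932 genes.

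Among the 16 genes with a Balb/c excess past 2-fold in both pairs were Ankrd2, Mustn1, Xirp1 and Mybph. Ankrd2 was at 369 FPKM in 4T1-bearing Balb/c and 64.8 in C26m2-bearing CD2F1 (5.5-fold), and Mustn1 at 813 and 155 FPKM (5.058-fold). Xirp1 was at 149 and 46.8 FPKM (3.068-fold). Mybph stayed higher in Balb/c at a much lower level, 1.02 and 0.286 FPKM. Hspb7 was under 2-fold with tumours, at 928 and 679 FPKM, 1.318-fold apart, and Cdkn1a at 397 and 212 FPKM, 1.803-fold apart.

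Among the 19 genes with a CD2F1 excess past 2-fold in both pairs were Amd1, Mgst1 and Zmynd17. Mgst1 was at 49.4 FPKM in 4T1-bearing Balb/c and 199 in C26m2-bearing CD2F1 (4.173-fold), and Zmynd17 at 2.80 and 18.5 FPKM (6.844-fold). Npc1 was at 41.9 and 99.4 FPKM, and Dgat2 at 29.1 and 75.8 FPKM. Mylk4 was at 2.79 and 43.1 FPKM, a gap of 16.0-fold where the healthy gap was 2.086-fold.

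The 3 neutrophil genes compared turned over. S100a8 was at 1368 FPKM in 4T1-bearing Balb/c and 46.2 in C26m2-bearing CD2F1, and S100a9 at 615 and 13.4 FPKM, so both were higher in Balb/c with tumours and higher in CD2F1 without. Hp went the same way, at 18.0 and 2.98 FPKM. S100a8, S100a9 and Hp passed the floor of 1 FPKM only through CD2F1, so their healthy order is not separate from that floor. Ighm was at 1.20 and 2.95 FPKM, the reverse of its healthy order.

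**Figure D5:**
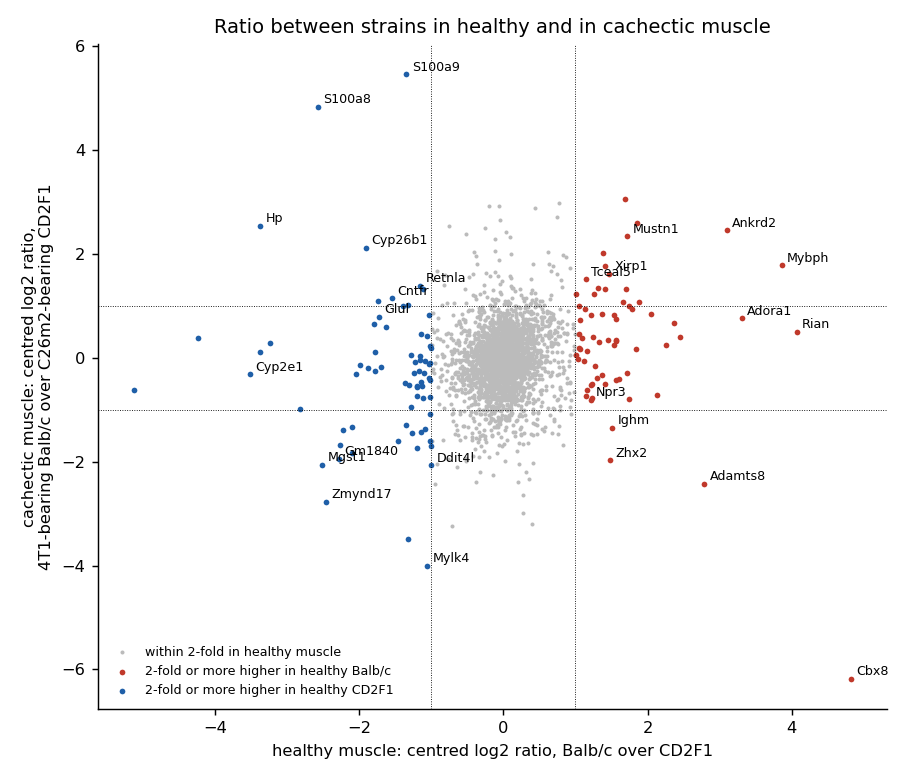
Centred log2 ratio of Balb/c over CD2F1 in healthy muscle (horizontal axis) against tumour-bearing, cachectic muscle (vertical axis), 1 point per gene and 2932 in all. Ankrd2 and Mustn1 lie high on both axes, Zmynd17 and Mgst1 low on both, and Cbx8 and S100a8 in opposite quadrants. Cbx8 passed the floor of 1 FPKM only through Balb/c, and S100a8 only through CD2F1.

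In all, 23 genes were listed in opposite directions in the authors' deposited tables, and 11 of them were among the 136 genes past 2-fold between healthy strains, 4 higher in Balb/c and 7 in CD2F1. Cbx8 was the extreme case, going from 22.9 to 0.365 FPKM with 4T1 and from 0.760 to 25.5 FPKM with C26m2, at q of 0.000382 and 0.000597 in the authors' deposited tables. Adamts8, a secreted metalloproteinase, went from 6.96 to 0.527 FPKM and from 0.948 to 2.74 FPKM. Cbx8 and Adamts8 passed the floor of 1 FPKM only through Balb/c. The entry labelled Zhx2, the symbol of a zinc finger and homeobox repressor, went from 15.3 to 2.74 FPKM and from 5.17 to 10.4 FPKM. Its identifier matched no gene in GENCODE M21, so the label could not be checked.

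On the CD2F1 side, Cyp26b1 went from 1.60 to 6.16 FPKM with 4T1 and from 5.65 to 1.37 FPKM with C26m2. Cyp2e1 went from 0.520 to 1.55 FPKM and from 5.60 to 1.86 FPKM. These within-strain changes share the healthy groups with the strain ratio, so their directions are not independent of it and nothing further is read from them.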

How the data were processed

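The authors' deposited tables hold, per the file headers, 1 FPKM value per group and gene, the log2 fold change of tumour-bearing over healthy muscle, and Cuffdiff p-values and q-values. Cuffdiff, Cufflinks 2.2.1, TopHat2 2.1.0 and build NCBIM37 are named in the submitters' processing notes. Annotation release, library normalization and strand were not given in the sources used here. Without strand, overlapping antisense genes cannot be separated. The tables were joined on gene identifier with pandas 2.3.3, and the log2 ratio of healthy levels was centred on its median. The deposited log2 fold change matched the FPKM ratio within 1.43e-05, so no pseudocount was used. Counting was tested on simulated data.

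Genes named are the 15 widest each way at 5 FPKM or more, list members past 2-fold (at most 5 each way per list), the 10 most abundant, chosen atrophy and muscle genes, and those extreme in tumour-bearing muscle (82 in all); some of these are not reported here. Other named list members, and genes not in both tables, were chosen after their values were seen. The gene lists and the genes compared were themselves chosen with earlier results of these data known. Chromosomes came from GENCODE M21 (2896 genes matched); near copies were sought with BLASTN 2.17.0 at 95% identity over 200 bases. Alternatives covered centring, the floor, an added FPKM, the join and q.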

Additional observations from a re-analysis of the deposited data

How the results depend on the processing

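No paired analysis was possible because each group has a single deposited value and no per-library columns. Under the 9 alternatives, 38 of 45 counts stayed within 1.5 times, as did 295 of 296 list medians and 689 of 701 gene ratios. The direction of values near 0 depended on centring. Without centring, the log2 ratio of Mt1 was 0.07 instead of -0.02. Negative list medians smaller in size than the subtracted 0.09, such as -0.08 for autophagy and lysosomes, also changed sign without centring. With 1 FPKM added to each level, the genes past 2-fold were 41 in Balb/c and 38 in CD2F1, those past 4-fold in Balb/c 7, those past 2-fold the same way in tumour-bearing muscle 15, and the liver list's median -2.28; 12 gene ratios moved there, all by the added value's pull on low levels. Genes past 4-fold in Balb/c were 17 with no floor and 7 at a q of 0.01 or less, and those past 4-fold in CD2F1 were 10 with 1 FPKM or more required in both healthy groups. Leaving out a replicate could not be done. Depth is unknown, group values carry no error, and genes outside either table are not called alike.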
